A study of Homo sapiens with 9 samples.

Results

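The genes described here were the 50 protein-coding genes whose name starts with EIF, the prefix of the eukaryotic translation initiation factors, with the 4 EIF2AK kinase genes left out. They were taken by name alone from 22741 genes listed in both deposited tables, of which 14248 were protein coding. RNA sequencing was performed on WiDr cells, which come from a human colon adenocarcinoma and carry mutant p53, after transfection for 24 h with 100 nM of LIMp27 siRNA-2, LIMp27 siRNA-1 or control siRNA (below siRNA-2, siRNA-1 and control). LIMp27 (LINC01356) is a long noncoding RNA, and the question was which transcripts differ when it is targeted. Each group had 3 libraries, described by the study as biological repeats, and the same 3 control libraries served both siRNAs. A single cell line and a single time point were used.

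Translation initiation brings the small ribosomal subunit, the initiator tRNA and the mRNA together at the start codon. eIF2 carries the initiator tRNA as a complex with GTP, and eIF2B recharges eIF2 with GTP, a step that is blocked when the alpha subunit of eIF2 is phosphorylated by a stress kinase. eIF4E binds the mRNA cap and, with the scaffold eIF4G and the helicase eIF4A, forms the complex eIF4F, which the 4E-binding proteins keep from assembling, while eIF3 holds the small subunit and the mRNA together. In tumor cells mTOR signaling promotes these steps, in part by phosphorylating the 4E-binding proteins.

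Between 14361629 and 21524623 reads per library were assigned to genes, and in each group the libraries differed from each other by more than the sampling noise of their counts. LIMp27 itself could not be checked in these counts, as its gene had 0 to 2 reads in every library. The paper reports that its knockdown in the sequenced WiDr cells was checked by qPCR. The colon epithelial markers were present, with EPCAM at 569 to 702 FPKM, and of 9 such markers 8 were listed, although CDX2 stayed at 0.30 to 0.92 FPKM and CDX1 was not listed. The summed FPKM of these markers was 7130 to 7945 with siRNA-2, 8351 to 8658 with siRNA-1 and 10937 to 11523 with control, and the part of this shift in the results below was not tested. Of 10 leukocyte, fibroblast and endothelial markers 3 were listed, with sums of at most 1.25 FPKM in any library.

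More initiation factor transcripts were lower than higher with each LIMp27 siRNA. A gene was called when edgeR's quasi-likelihood test gave a Benjamini-Hochberg adjusted p below 0.05 over all genes tested, and 48 of the 50 genes had enough reads to be tested. With siRNA-2, 29 of them were lower, 2 were higher and 17 were not called, while 29.0% of the 14204 genes tested were lower and 27.7% were higher. With siRNA-1, 32 were lower, 2 were higher and 14 were not called, against 28.3% lower and 26.5% higher of all 14347 genes tested. The initiation factor genes lower with siRNA-2 thus made up 60.42% of those tested, and the ones lower with siRNA-1 made up 66.67%. Their median log2 fold change was −0.23 with siRNA-2 and −0.27 with siRNA-1, and the median of all tested genes was 0.01 with siRNA-2 and 0.0009 with siRNA-1.

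Initiation factor genes are abundant, and abundant genes as a whole leaned lower. Of the genes with a mean normalized count of at least 1000, 41.51% were lower with siRNA-2 and 46.29% with siRNA-1. Among the initiation factor genes at that level, 22 of 33 were lower with siRNA-2 and 26 of 34 with siRNA-1. Without TMM scaling, on library totals alone, 25 initiation factor genes were lower and 4 higher with siRNA-2, beside 3362 lower and 4976 higher genes over the whole table in place of 4120 lower and 3939 higher. With siRNA-1 this scaling gave 28 lower and 7 higher initiation factor genes, beside 3017 lower and 4974 higher genes in place of 4066 lower and 3802 higher. No called initiation factor gene turned its direction on that scale. In bulk RNA, fewer cells with a transcript and less of it per cell cannot be told apart.

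**Figure D1:**
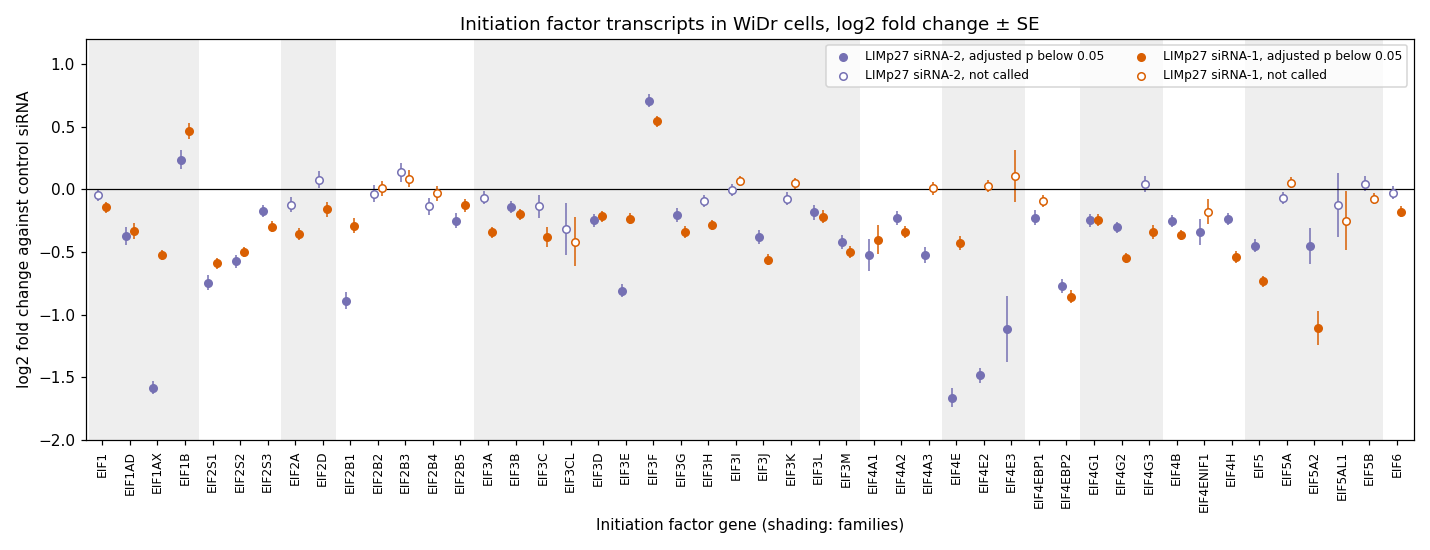
Log2 fold change (vertical axis) of the 48 tested initiation factor genes (horizontal axis, shaded by family) with LIMp27 siRNA-2 (purple) and LIMp27 siRNA-1 (orange) against control siRNA in WiDr cells. Bars are standard errors from edgeR and filled points have an adjusted p below 0.05. EIF1AX, EIF4E, EIF4E2 and EIF4E3 lay furthest below 0 with LIMp27 siRNA-2, between −1.66 and −1.12, and EIF3F and EIF1B were the 2 genes called higher.

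The transcripts of the 50 genes took 1.23% to 1.26% of all counted reads with siRNA-2, 1.21% to 1.24% with siRNA-1 and 1.38% to 1.39% with control. No library of either LIMp27 siRNA reached the control range. Levels of different genes were compared as FPKM, the deposited reads per kilobase of transcript scaled to the reads counted in a library. EIF4G2, EIF5A, EIF3I and EIF3E led the control libraries, with EIF4G2 at 1555 ± 18.7 FPKM and EIF5A at 1439 ± 47.8 FPKM (SD, n = 3 each). EIF4G2 encodes a relative of eIF4G that lacks the eIF4E-binding part, and EIF5A encodes the factor that carries the modified residue hypusine and helps ribosomes through difficult peptide bonds. At the other end, EIF2S3B had 2 to 12 reads and EIF4EBP3 0 to 4 reads per library, and neither was tested.

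**Figure D2:**
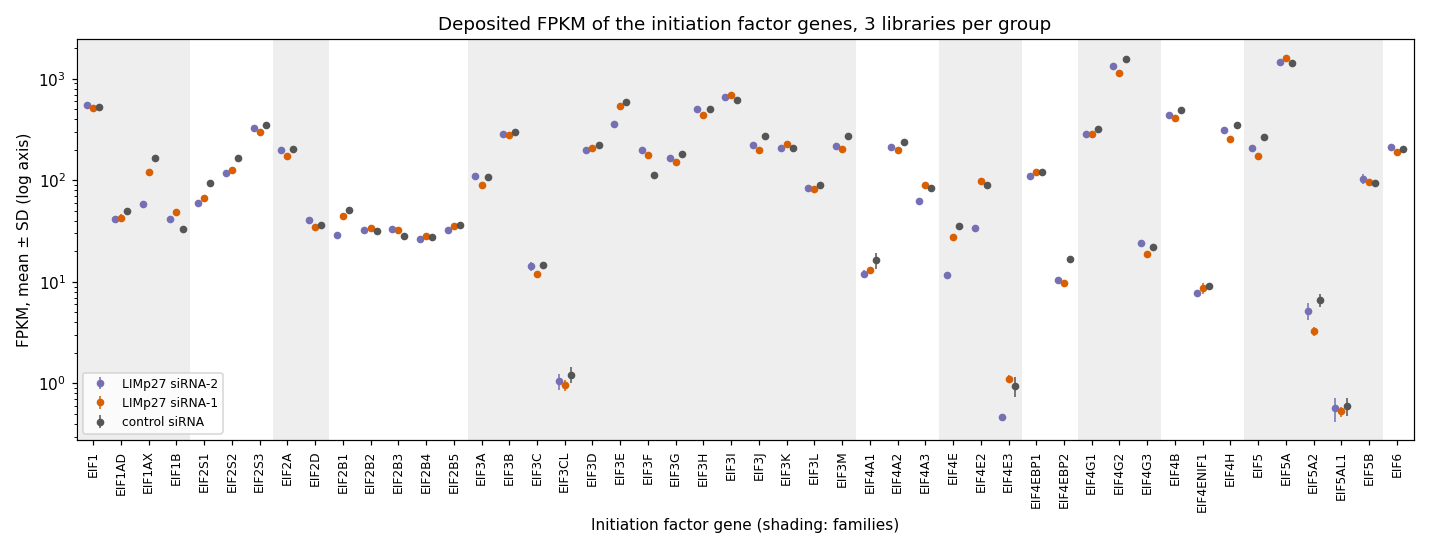
Deposited FPKM (vertical log axis) of the 48 tested initiation factor genes (horizontal axis, shaded by family) with LIMp27 siRNA-2 (purple), LIMp27 siRNA-1 (orange) and control siRNA (gray), as the mean of 3 libraries with SD. Levels ran from under 1 FPKM for EIF5AL1 to 1555 FPKM for EIF4G2 in control libraries, and EIF1AX, EIF4E and EIF4E2 show the lowest purple points relative to gray.

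The eIF4E family held 3 of the 4 deepest falls with siRNA-2. All 3 family members were lower with siRNA-2, beside 29.0% of all genes tested, whereas with siRNA-1 EIF4E alone was called. Their summed level was 46.4 ± 0.887 FPKM with siRNA-2, 126.8 ± 2.21 FPKM with siRNA-1 and 126.1 ± 2.19 FPKM with control (SD, n = 3 each). EIF4E2 made up most of it, at 73.6% with siRNA-2, 77.1% with siRNA-1 and 71.4% with control.

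EIF4E (ENSG00000151247; chromosome 4, 98871684 to 98930637 of GRCh38, minus strand) encodes the cap-binding subunit of eIF4F. It had 20.5, 20.5 and 20.1 CPM (counts scaled by TMM to a common library size) in the siRNA-2 libraries, 47.1, 50.4 and 46.6 CPM in the siRNA-1 libraries, and 61.9, 68.4 and 64.1 CPM in the control libraries. The 3 groups did not overlap, and siRNA-2 was lowest. On the log2 scale the difference was −1.66 (SE 0.074, adjusted p = 1.89e-17 from edgeR) with siRNA-2 and −0.43 (SE 0.057, adjusted p = 2.66e-07) with siRNA-1.

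EIF4E2 (ENSG00000135930; chromosome 2, 232550052 to 232583644, plus strand) encodes 4EHP, a cap-binding protein that does not join eIF4G and is known to repress the mRNAs it binds. It had 41.5, 39.8 and 39.4 CPM with siRNA-2, 119.3, 112.3 and 113.9 CPM with siRNA-1, and 114.2, 108.5 and 117.5 CPM with control. The siRNA-2 libraries lay apart from the rest, while siRNA-1 and control libraries overlapped. The fitted log2 fold change was −1.49 (SE 0.062, adjusted p = 5.79e-18 from edgeR) with siRNA-2 and 0.03 (SE 0.048, adjusted p = 0.679) with siRNA-1.

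EIF4E3 (ENSG00000163412; chromosome 3, 71675416 to 71754773, minus strand) encodes a cap-binding relative of eIF4E and was scarce. It had 27, 20 and 19 reads with siRNA-2, 56, 61 and 61 reads with siRNA-1, and 58, 35 and 56 reads with control. The siRNA-2 libraries were again the 3 lowest, and the second control library lay nearest to them. Its log2 fold change was −1.12 (SE 0.265, adjusted p = 0.000686 from edgeR) with siRNA-2 and 0.11 (SE 0.209, adjusted p = 0.695) with siRNA-1, so that its size is less well measured than that of EIF4E or EIF4E2.

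**Figure D3:**
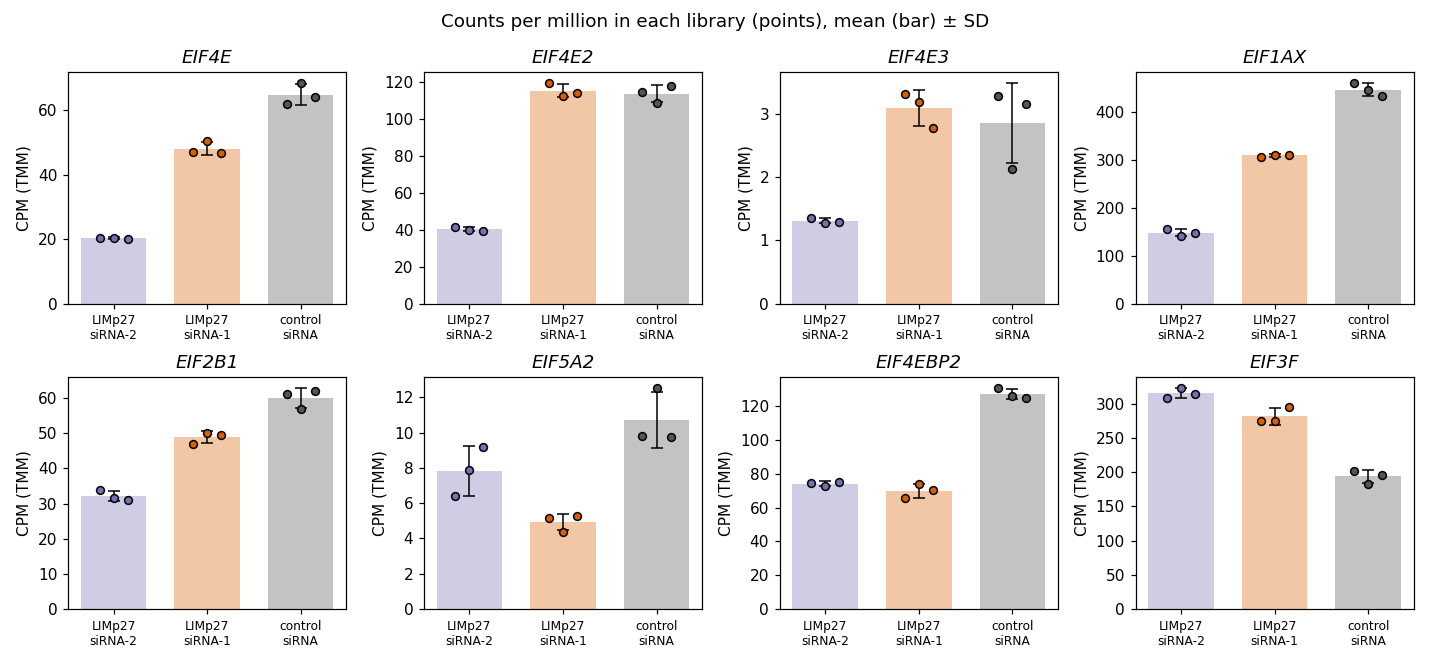
CPM, counts scaled by TMM to a common library size (vertical axes, from 0) of 8 initiation factor genes in each library of LIMp27 siRNA-2 (purple), LIMp27 siRNA-1 (orange) and control siRNA (gray). Each point is a library, columns give the mean and whiskers the SD of 3 libraries. EIF4E, EIF4E2, EIF4E3, EIF1AX and EIF2B1 were lowest with LIMp27 siRNA-2, EIF5A2 was lowest with LIMp27 siRNA-1, EIF4EBP2 was lower with both, and EIF3F was higher with both.

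The sequences just upstream of EIF4E and EIF4E2 are shown because these genes fell together with siRNA-2. They are the 250 bases before the RefSeq start on GRCh38.p14, EIF4E at chr4:98929134-98929383 on the minus strand and EIF4E2, at the first of its 2 listed starts, at chr2:232550439-232550688 on the plus strand. Capitals mark E-box letters (CACGTG), GC box letters (GGGCGG) and ETS letters (CCGGAAG) on either strand.
EIF4E: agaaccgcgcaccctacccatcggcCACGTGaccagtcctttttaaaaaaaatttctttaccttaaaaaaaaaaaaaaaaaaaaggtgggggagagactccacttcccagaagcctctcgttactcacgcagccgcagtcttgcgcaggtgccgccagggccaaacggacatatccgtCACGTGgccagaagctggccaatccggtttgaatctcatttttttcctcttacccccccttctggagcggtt
EIF4E2: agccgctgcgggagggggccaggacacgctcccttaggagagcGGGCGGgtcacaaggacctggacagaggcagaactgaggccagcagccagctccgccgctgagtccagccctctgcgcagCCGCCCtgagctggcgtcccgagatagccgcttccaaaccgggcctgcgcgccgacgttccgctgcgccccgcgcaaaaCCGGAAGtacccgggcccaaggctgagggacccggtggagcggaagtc
EIF4E held the E-box letters at 225 and 72 bases before its start and none of the others, whereas EIF4E2 held GC box letters at 207 and 127 bases and ETS letters at 48 bases. None of these letters stood in both windows. The other listed start of EIF4E2 is not shown, and a link between such letters and the fall was not tested. Both windows lie inside the annotated GENCODE 29 span of their gene, which holds starts further upstream, and so does that of EIF3F.

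Of the 4E-binding protein genes, whose products hold eIF4E away from eIF4G when not phosphorylated, EIF4EBP2 was lower with both siRNAs. EIF4EBP2 had 74.4, 72.7 and 75.4 CPM with siRNA-2, 65.6, 73.8 and 70.6 CPM with siRNA-1, and 130.7, 126.0 and 125.1 CPM with control. All 6 libraries of the LIMp27 siRNAs lay well below the controls and overlapped each other. The log2 fold change was −0.77 (SE 0.057, adjusted p = 2.14e-12 from edgeR) with siRNA-2 and −0.86 (SE 0.051, adjusted p = 2.11e-14) with siRNA-1. EIF4EBP1, the most abundant of the family at 122.2 ± 1.90 FPKM in control libraries (SD, n = 3), had 96.3, 96.3 and 86.1 CPM with siRNA-2, 106.7, 97.9 and 102.4 CPM with siRNA-1, and 110.7, 110.1 and 108.0 CPM with control. It was called with siRNA-2 alone, at −0.23 (SE 0.060, adjusted p = 0.00171 from edgeR), and its log2 fold change with siRNA-1 was −0.10 (SE 0.048, adjusted p = 0.0944). Without siRNA-1 replicate 1 it was called lower with siRNA-1 as well (−0.13, adjusted p = 0.0447 from edgeR). The difference between the siRNAs was not called (−0.12, adjusted p = 0.0938 from edgeR).

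Among the helicase genes, EIF4A3 fell with siRNA-2. EIF4A3, whose product sits in the exon junction complex, had 73.8, 83.2 and 85.3 CPM with siRNA-2, 122.4, 111.8 and 116.2 CPM with siRNA-1, and 118.3, 119.6 and 112.0 CPM with control. The siRNA-2 libraries lay below all others. On the log2 scale the difference was −0.53 (SE 0.062, adjusted p = 2.91e-08 from edgeR) with siRNA-2 and 0.01 (SE 0.049, adjusted p = 0.93) with siRNA-1.

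EIF4A2, the one of the 3 EIF4A genes with the highest FPKM, had 240.1, 226.8 and 229.9 CPM with siRNA-2, 216.6, 214.5 and 214.1 CPM with siRNA-1, and 278.1, 251.1 and 292.2 CPM with control. Both siRNAs lay below the controls, with log2 fold changes of −0.23 (SE 0.055, adjusted p = 0.000839 from edgeR) for siRNA-2 and −0.34 (SE 0.048, adjusted p = 5.42e-07) for siRNA-1. EIF4A1, the main eIF4A helicase gene of most cells, was listed with only 10.6, 8.7 and 9.3 CPM with siRNA-2, 11.1, 10.7 and 9.8 CPM with siRNA-1, and 14.6, 11.1 and 15.9 CPM with control. Its log2 fold changes were −0.53 (SE 0.127, adjusted p = 0.000848 from edgeR) with siRNA-2 and −0.40 (SE 0.116, adjusted p = 0.00417) with siRNA-1. EIF4A1 shares 29.83% of its exon bases with the readthrough gene SENP3-EIF4A1 and 41.12% with AC016876.2 on the same strand, so that its counted reads may not stand for the whole transcript.

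The scaffold gene EIF4G2 had 1687.2, 1669.7 and 1799.5 CPM with siRNA-2, 1402.9, 1485.8 and 1467.7 CPM with siRNA-1, and 2112.4, 2147.0 and 2140.6 CPM with control. The 3 groups did not overlap, and siRNA-1 was lowest. The fitted log2 fold change was −0.30 (SE 0.046, adjusted p = 2.03e-06 from edgeR) with siRNA-2 and −0.55 (SE 0.041, adjusted p = 2.46e-12) with siRNA-1. EIF4G1, the main eIF4G scaffold, was lower by a similar amount with each siRNA, at −0.25 with both, and EIF4G3 was lower with siRNA-1 (−0.34, adjusted p = 8.64e-06 from edgeR) and had a log2 fold change of 0.04 (adjusted p = 0.626) with siRNA-2.

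EIF4B and EIF4H, whose products stimulate eIF4A, were lower with both siRNAs. EIF4H had 435.5, 445.3 and 451.1 CPM with siRNA-2, 335.8, 368.1 and 378.7 CPM with siRNA-1, and 532.8, 541.7 and 506.6 CPM with control, again without overlap between the 3 groups. Its log2 fold change was −0.24 (SE 0.049, adjusted p = 0.000132 from edgeR) with siRNA-2 and −0.54 (SE 0.046, adjusted p = 4.68e-11) with siRNA-1. EIF4B had 546.0, 528.4 and 582.1 CPM with siRNA-2, 497.2, 514.0 and 526.3 CPM with siRNA-1, and 664.9, 670.6 and 652.8 CPM with control, and was lower by 0.26 with siRNA-2 and by 0.37 with siRNA-1. EIF4ENIF1, which encodes the eIF4E transporter 4E-T, was lower with siRNA-2 (−0.34, adjusted p = 0.00662 from edgeR) and had a log2 fold change of −0.18 (adjusted p = 0.136) with siRNA-1. Of the 14 tested EIF4 genes in all, 13 were lower with siRNA-2 and 9 with siRNA-1, and none was higher. Over all genes tested, 29.0% were lower and 27.7% higher with siRNA-2, and 28.3% lower and 26.5% higher with siRNA-1.

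All 3 tested subunit genes of eIF2 were lower with both siRNAs, beside 29.0% of all genes with siRNA-2 and 28.3% with siRNA-1. EIF2S1, which encodes the alpha subunit that the stress kinases phosphorylate, had 97.9, 85.5 and 99.9 CPM with siRNA-2, 104.2, 107.9 and 104.6 CPM with siRNA-1, and 158.7, 157.0 and 162.8 CPM with control. Every library of the LIMp27 siRNAs lay far below every control library. The log2 fold change was −0.75 (SE 0.060, adjusted p = 1.14e-11 from edgeR) with siRNA-2 and −0.59 (SE 0.045, adjusted p = 5.13e-12) with siRNA-1.

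EIF2S2, the beta subunit gene, had 307.1, 292.4 and 328.0 CPM with siRNA-2, 322.0, 328.5 and 328.3 CPM with siRNA-1, and 469.3, 452.3 and 469.0 CPM with control. The libraries of the LIMp27 siRNAs overlapped and lay below the controls, with log2 fold changes of −0.58 (SE 0.051, adjusted p = 1.02e-10 from edgeR) for siRNA-2 and −0.50 (SE 0.041, adjusted p = 2.17e-11) for siRNA-1. EIF2S3, which encodes the gamma subunit that binds GTP and the initiator tRNA, had 298.6, 292.6 and 304.8 CPM with siRNA-2, 259.4, 279.6 and 284.2 CPM with siRNA-1, and 340.1, 335.5 and 342.1 CPM with control. It was the most abundant of the subunit genes and moved least, with log2 fold changes of −0.18 (SE 0.049, adjusted p = 0.00303 from edgeR) with siRNA-2 and −0.30 (SE 0.044, adjusted p = 1.08e-06) with siRNA-1. On library totals alone its siRNA-2 call was lost (−0.09, adjusted p = 0.125 from edgeR). The summed level of the EIF2S genes was 505.2 ± 16.8 FPKM with siRNA-2, 493.2 ± 18.1 FPKM with siRNA-1 and 608.4 ± 5.63 FPKM with control (SD, n = 3 each).

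EIF2A and EIF2D, whose products can deliver tRNA to the small subunit apart from eIF2, were called lower with siRNA-1 alone. Their log2 fold changes with siRNA-1 were −0.35 (adjusted p = 3.03e-07 from edgeR) for EIF2A and −0.16 (adjusted p = 0.0277) for EIF2D, and with siRNA-2 they were −0.12 (adjusted p = 0.0766) for EIF2A and 0.08 (adjusted p = 0.343) for EIF2D. The call of EIF2D with siRNA-1 was lost with DESeq2 and in 4 of the 6 fits that left out a library. EIF2A was also called lower with siRNA-2 without the filter on low counts, with a replicate block and in a fit over all 9 libraries. The same held without siRNA-2 replicate 3 and without control replicate 2. On library totals alone EIF2D was called higher with siRNA-2.

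Within the exchange factor eIF2B, the alpha subunit gene stood out. EIF2B1 (ENSG00000111361) had 33.9, 31.5 and 31.1 CPM with siRNA-2, 47.0, 50.2 and 49.6 CPM with siRNA-1, and 61.1, 56.9 and 62.1 CPM with control. The 3 groups were separate, with siRNA-2 lowest. On the log2 scale the difference was −0.89 (SE 0.070, adjusted p = 7.65e-12 from edgeR) with siRNA-2 and −0.29 (SE 0.057, adjusted p = 7.78e-05) with siRNA-1. EIF2B1 supplied 19.0% of the summed FPKM of the 5 eIF2B genes with siRNA-2, 25.5% with siRNA-1 and 29.2% with control.

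EIF2B5, the gene of the catalytic epsilon subunit, was lower by 0.25 on the log2 scale with siRNA-2 (adjusted p = 0.000697 from edgeR) and by 0.13 with siRNA-1 (adjusted p = 0.0339). The siRNA-1 call of EIF2B5 was lost with DESeq2 and in 4 of the 6 fits that left out a library. EIF2B2, EIF2B3 and EIF2B4, which encode the beta, gamma and delta subunits, were called in neither comparison, with log2 fold changes between −0.14 and 0.14. On library totals alone EIF2B3 was called higher with both siRNAs, and without siRNA-2 replicate 2 EIF2B4 was called lower with siRNA-2.

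Most of the 14 eIF3 genes shifted by little, with a few exceptions in both directions. With siRNA-2, 7 were lower and EIF3F was higher, and with siRNA-1, 10 were lower and EIF3F was higher. Over all genes tested, 29.0% were lower with siRNA-2 and 28.3% with siRNA-1. For genes with a mean normalized count of at least 1000 these shares were 41.51% with siRNA-2 and 46.29% with siRNA-1. The median log2 fold change over the 14 genes was −0.16 with siRNA-2 and −0.26 with siRNA-1. The summed eIF3 level was 3232 ± 26.7 FPKM with siRNA-2, 3305 ± 19.8 FPKM with siRNA-1 and 3505 ± 64.1 FPKM with control (SD, n = 3 each).

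EIF3F (ENSG00000175390; chromosome 11, 7970251 to 8001862, plus strand) encodes a subunit with an MPN domain. It had 308.1, 322.5 and 313.9 CPM with siRNA-2, 274.3, 274.5 and 295.0 CPM with siRNA-1, and 202.1, 183.2 and 196.4 CPM with control. The groups did not overlap, and the controls were lowest. The fitted log2 fold change was 0.71 (SE 0.053, adjusted p = 2.26e-12 from edgeR) with siRNA-2 and 0.54 (SE 0.047, adjusted p = 5.41e-11) with siRNA-1.

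The 250 bases before the RefSeq start of EIF3F, at chr11:7987087-7987336 on the plus strand of GRCh38.p14, are shown as those of the eIF3 gene that rose. Capitals mark E-box letters, found once, at 68 bases before the start.
EIF3F: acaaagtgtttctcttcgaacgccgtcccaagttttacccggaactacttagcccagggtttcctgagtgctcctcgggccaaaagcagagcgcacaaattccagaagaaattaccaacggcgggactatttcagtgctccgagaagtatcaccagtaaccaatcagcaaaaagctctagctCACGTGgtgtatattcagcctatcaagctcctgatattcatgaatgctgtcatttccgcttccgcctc
E-box letters also stood before EIF4E, as shown above. Whether these letters go with the direction of change was not tested.

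EIF3E, which encodes the subunit also known as INT6, was the eIF3 gene that fell furthest with siRNA-2. It had 300.5, 280.8 and 302.8 CPM with siRNA-2, 458.7, 442.5 and 420.4 CPM with siRNA-1, and 509.5, 506.3 and 542.5 CPM with control. The siRNA-2 libraries lay far below all others. Its log2 fold change was −0.81 (SE 0.051, adjusted p = 5.25e-14 from edgeR) with siRNA-2 and −0.23 (SE 0.044, adjusted p = 4.91e-05) with siRNA-1.

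EIF3J and EIF3M were lower with both siRNAs. EIF3J, a loosely held subunit, had 232.2, 215.6 and 249.5 CPM with siRNA-2, 207.0, 207.1 and 203.5 CPM with siRNA-1, and 296.1, 300.1 and 317.7 CPM with control. The 3 groups were separate, and the log2 fold change was −0.38 (SE 0.055, adjusted p = 8.18e-07 from edgeR) with siRNA-2 and −0.56 (SE 0.043, adjusted p = 5.84e-12) with siRNA-1. EIF3M had 297.0, 276.1 and 269.2 CPM with siRNA-2, 273.5, 259.0 and 266.8 CPM with siRNA-1, and 378.6, 353.3 and 402.4 CPM with control. The libraries of the LIMp27 siRNAs overlapped below the controls, with log2 fold changes of −0.42 (SE 0.055, adjusted p = 1.5e-07 from edgeR) for siRNA-2 and −0.50 (SE 0.047, adjusted p = 2.59e-10) for siRNA-1, and the difference between them was not called (0.09, adjusted p = 0.15).

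EIF3I, the most abundant eIF3 gene, had 527.0, 513.6 and 496.5 CPM with siRNA-2, 557.0, 535.2 and 527.0 CPM with siRNA-1, and 505.2, 500.6 and 545.7 CPM with control. Each siRNA overlapped the controls, and neither difference was called, at −0.00494 (adjusted p = 0.942 from edgeR) with siRNA-2 and 0.07 (adjusted p = 0.21) with siRNA-1. EIF3K and EIF3CL were also called with neither siRNA. EIF3B, EIF3D, EIF3G and EIF3L were lower with both, with log2 fold changes between −0.34 and −0.14. With siRNA-2 the calls of EIF3B, EIF3G and EIF3L were lost on library totals alone, those of EIF3B and EIF3L also without siRNA-2 replicate 1, and that of EIF3B also without control replicate 1. EIF3A, EIF3C and EIF3H were called lower with siRNA-1 alone, at −0.34 for EIF3A, −0.38 for EIF3C and −0.29 for EIF3H, and had log2 fold changes of −0.07, −0.14 and −0.09 with siRNA-2. With siRNA-2, EIF3H was called lower by DESeq2, and EIF3A without siRNA-2 replicate 3. EIF3C and EIF3CL are near-identical copies between which reads may be split, and their levels of 14.6 and 1.22 FPKM in control libraries lay far below the 89.2 to 623 FPKM of the other eIF3 genes.

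The start-codon factors held the deepest fall outside the eIF4E family. EIF1AX (ENSG00000173674; chromosome X, 20124518 to 20141844, minus strand) encodes eIF1A, which keeps the small subunit open for scanning. It had 155.9, 141.4 and 147.7 CPM with siRNA-2, 305.8, 311.4 and 311.5 CPM with siRNA-1, and 461.1, 446.5 and 433.9 CPM with control. The 3 groups stood far apart, in that order. The log2 fold change was −1.58 (SE 0.054, adjusted p = 6.09e-20 from edgeR) with siRNA-2 and −0.53 (SE 0.042, adjusted p = 1.15e-11) with siRNA-1.

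The 250 bases before the RefSeq start of EIF1AX, at chrX:20141839-20142088 on the minus strand of GRCh38.p14, are shown beside those of EIF4E and EIF4E2. Capitals mark GC box letters, at 229 and 55 bases before the start.
EIF1AX: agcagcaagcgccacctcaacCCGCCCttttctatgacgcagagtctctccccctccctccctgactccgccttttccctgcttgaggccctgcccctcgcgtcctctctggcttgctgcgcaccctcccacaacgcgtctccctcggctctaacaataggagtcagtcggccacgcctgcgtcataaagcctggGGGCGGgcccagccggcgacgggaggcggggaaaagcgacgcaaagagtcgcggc
RefSeq gave a promoter for 42 of the 50 genes. E-box letters stood in 11 of them (26.2%), against 7.73% of all 27305 genes with a sequence, ETS letters in 9 (21.4%, against 10.24%), and GC box letters in 31 (73.8%, against 46.24%). The E2F letters TTTCGCGC or TTTGGCGC stood in none, against 1.2% of all genes. A gene was counted when the window of any of its listed starts held the letters, and the 27305 genes had 35116 listed starts. The genes of this comparison include many that do not encode proteins, and a match is no evidence of binding.

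EIF1B, a close relative of EIF1, was the second gene that was higher with both siRNAs. It had 33.4, 31.2 and 32.3 CPM with siRNA-2, 37.7, 37.2 and 38.8 CPM with siRNA-1, and 28.1, 28.0 and 26.7 CPM with control. The groups did not overlap, and siRNA-1 was highest. On the log2 scale the difference was 0.24 (SE 0.078, adjusted p = 0.0106 from edgeR) with siRNA-2 and 0.46 (SE 0.066, adjusted p = 7.24e-07) with siRNA-1. The siRNA-2 call was lost without siRNA-2 replicate 1 and without control replicate 3, which left 1 initiation factor gene higher.

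EIF1, which guards the choice of the start codon, had 714.8, 675.8 and 739.5 CPM with siRNA-2, 657.7, 662.7 and 674.6 CPM with siRNA-1, and 720.8, 715.3 and 774.2 CPM with control. siRNA-1 was lower by 0.14 on the log2 scale (SE 0.042, adjusted p = 0.0051 from edgeR), a call that did not hold on library totals alone, and siRNA-2 overlapped the controls (−0.05, adjusted p = 0.453). EIF1AD was lower with each siRNA, by 0.37 with siRNA-2 and 0.34 with siRNA-1.

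Among the late-acting factors, EIF5 and EIF5A2 were lower with both siRNAs and furthest with siRNA-1. EIF5 encodes the protein that triggers GTP hydrolysis on eIF2 at the start codon. It had 240.3, 237.5 and 267.6 CPM with siRNA-2, 191.2, 216.5 and 204.6 CPM with siRNA-1, and 338.2, 346.5 and 338.8 CPM with control. The 3 groups were separate, and the log2 fold change was −0.45 (SE 0.053, adjusted p = 2.54e-08 from edgeR) with siRNA-2 and −0.74 (SE 0.046, adjusted p = 5.67e-14) with siRNA-1.

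EIF5A2 (ENSG00000163577; chromosome 3, 170888415 to 170908693, minus strand), the scarcer relative of EIF5A, had 6.4, 7.9 and 9.2 CPM with siRNA-2, 5.1, 4.4 and 5.3 CPM with siRNA-1, and 9.8, 12.5 and 9.7 CPM with control. siRNA-1 was lowest without overlap, and siRNA-2 came close to the controls. The fitted log2 fold change was −0.45 (SE 0.141, adjusted p = 0.00722 from edgeR) with siRNA-2 and −1.11 (SE 0.137, adjusted p = 6.86e-08) with siRNA-1. The siRNA-2 call was lost without siRNA-2 replicate 1 and without control replicate 2.

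EIF5A, the second most abundant of the 50 genes in control libraries, had 1637.3, 1626.5 and 1491.3 CPM with siRNA-2, 1791.7, 1688.5 and 1704.5 CPM with siRNA-1, and 1739.4, 1624.4 and 1651.8 CPM with control. Each siRNA overlapped the controls, and neither log2 fold change was called, at −0.07 (adjusted p = 0.239 from edgeR) with siRNA-2 and 0.05 (adjusted p = 0.309) with siRNA-1. EIF5B, the GTPase that joins the ribosomal subunits, and EIF5AL1 were not called either. EIF6, which keeps the large subunit from joining early, had 179.7, 183.2 and 187.0 CPM with siRNA-2, 169.2, 163.6 and 162.7 CPM with siRNA-1, and 191.7, 185.7 and 185.9 CPM with control. It was lower with siRNA-1 (−0.18, SE 0.044, adjusted p = 0.000806 from edgeR), which did not hold on library totals alone, and had a log2 fold change of −0.03 (adjusted p = 0.679) with siRNA-2.

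The LIMp27 siRNAs were also compared directly, without the control libraries. Of the 48 genes, 17 were higher and 9 lower with siRNA-2 than with siRNA-1, and 22 were not called, while 23.1% of all 14415 genes tested were higher and 22.4% lower. On library totals alone 13 were higher and 11 lower. Of the genes with a mean normalized count of at least 1000, 33.83% were higher and 25.93% lower with siRNA-2 than with siRNA-1. Among the initiation factor genes at that level, 14 of 33 were higher and 5 lower. The largest differences were among the 9 initiation factor genes called lower, although not all 9 exceeded those of the higher genes. EIF4E2 differed by −1.50 (SE 0.061, adjusted p = 7.98e-19 from edgeR), EIF4E by −1.22 (SE 0.074, adjusted p = 1.18e-14), EIF4E3 by −1.21 (SE 0.239, adjusted p = 9.94e-05) and EIF1AX by −1.05 (SE 0.051, adjusted p = 1.02e-16) on the log2 scale. EIF2B1, EIF3E and EIF4A3 followed at −0.59, −0.57 and −0.52, and EIF1B and EIF2S1 were lower by 0.22 and 0.15. EIF1B was higher than control with both siRNAs, and less so with siRNA-2. The call of EIF2S1 was lost with DESeq2 and in 4 of the 6 fits that left out a library, and that of EIF1B without siRNA-1 replicate 3.

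The 17 higher genes differed by at most 0.67, the value of EIF5A2 (SE 0.153, adjusted p = 0.00061 from edgeR). EIF4G3 came next at 0.39, then EIF4H at 0.31, EIF5 at 0.30, EIF3A at 0.29 and EIF4G2 at 0.26. These genes were less reduced, or not reduced, with siRNA-2. EIF3F was the exception, since it was higher with both siRNAs and more so with siRNA-2 (0.18, SE 0.050, adjusted p = 0.00414 from edgeR). The calls of EIF4B, EIF4A2, EIF2S3, EIF3G, EIF3C and EIF6, all with differences of at most 0.26, were each lost in 1 to 9 of 12 alternative fits. EIF4EBP2, EIF2S2, EIF3M, EIF1AD and EIF4G1 were lower with both siRNAs and did not differ between them beyond the test's threshold. Matches of the siRNA guide strands to these transcripts were not examined here.

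**Figure D4:**
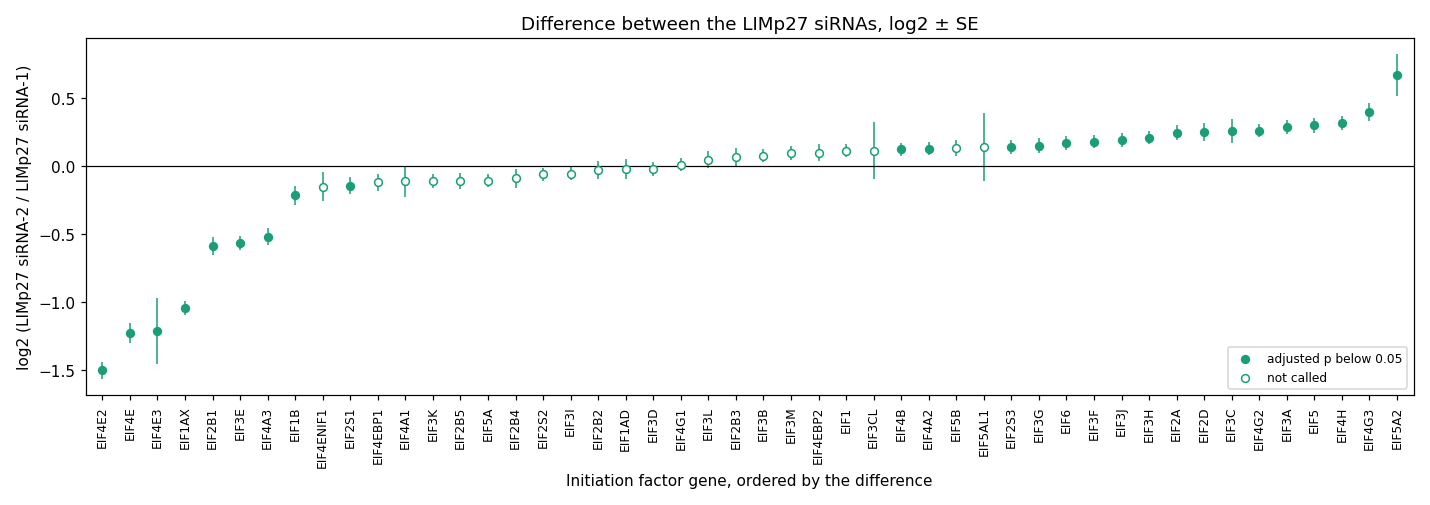
Log2 ratio of LIMp27 siRNA-2 to LIMp27 siRNA-1 (vertical axis) for the 48 tested initiation factor genes, ordered by that ratio (horizontal axis). Bars are standard errors from edgeR and filled points have an adjusted p below 0.05. EIF4E2, EIF4E, EIF4E3 and EIF1AX lay below −1, and EIF5A2 was highest at 0.67.

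Genes that act on the initiation factors were followed as a list of 33 partners and regulators, all of which were tested. With siRNA-2, 14 were lower and 10 higher, and with siRNA-1, 15 were lower and 8 higher, beside 29.0% lower and 27.7% higher of all genes with siRNA-2 and 28.3% lower and 26.5% higher with siRNA-1. Their median log2 fold change was −0.04 with siRNA-2 and −0.09 with siRNA-1. Among the 9 genes of eIF2 phosphorylation and assembly, 5 were lower with each siRNA, and of the 3 recycling and reinitiation genes DENR and MCTS1 were higher and ABCE1 lower with both. The siRNA-2 call of MCTS1 was lost without control replicate 2.

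BZW1, which encodes a mimic of eIF5, moved furthest in the list with siRNA-2. It had 146.9, 137.4 and 149.4 CPM with siRNA-2, 351.1, 366.2 and 351.4 CPM with siRNA-1, and 407.1, 416.9 and 413.6 CPM with control. The 3 groups were separate, as for EIF1AX, with log2 fold changes of −1.50 (SE 0.052, adjusted p = 9.37e-20 from edgeR) for siRNA-2 and −0.21 (SE 0.041, adjusted p = 0.000101) for siRNA-1. RPS6KB1, which encodes the mTOR target S6 kinase, had 34.3, 32.9 and 33.8 CPM with siRNA-2, 51.4, 56.7 and 52.4 CPM with siRNA-1, and 78.9, 79.2 and 81.7 CPM with control. Its log2 fold change was −1.24 with siRNA-2 and −0.57 with siRNA-1.

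PDCD4, which encodes an inhibitor of eIF4A, changed in opposite directions. It had 22.2, 23.9 and 23.7 CPM with siRNA-2, 54.2, 54.6 and 55.0 CPM with siRNA-1, and 34.3, 34.0 and 35.4 CPM with control. The controls lay between the siRNAs, with log2 fold changes of −0.57 (SE 0.079, adjusted p = 4.91e-07 from edgeR) for siRNA-2 and 0.66 (SE 0.058, adjusted p = 8.33e-11) for siRNA-1. MTOR and EIF2AK3, the gene of the stress kinase PERK, were called in opposite directions the other way round, and were picked out after their values were seen. MTOR had a log2 fold change of 0.19 with siRNA-2 and −0.29 with siRNA-1, and EIF2AK3 of 0.33 with siRNA-2 and −0.22 with siRNA-1. The siRNA-2 call of MTOR was lost without the filter on low counts and without siRNA-2 replicate 1, siRNA-2 replicate 2 or control replicate 1, and the siRNA-1 call of EIF2AK3 on library totals, with DESeq2 and without siRNA-1 replicate 1 or control replicate 2.

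MKNK2, which encodes a kinase of eIF4E, was higher with both siRNAs. It had 193.8, 213.2 and 203.1 CPM with siRNA-2, 141.3, 151.9 and 163.2 CPM with siRNA-1, and 116.8, 105.3 and 112.8 CPM with control. The groups were separate, at log2 fold changes of 0.87 (SE 0.057, adjusted p = 1.41e-13 from edgeR) for siRNA-2 and 0.45 (SE 0.053, adjusted p = 2.27e-08) for siRNA-1. ABCE1, which splits ribosomes after termination, had 111.9, 113.5 and 123.5 CPM with siRNA-2, 141.2, 141.7 and 134.7 CPM with siRNA-1, and 208.3, 209.7 and 205.6 CPM with control, and its log2 fold changes were −0.83 with siRNA-2 and −0.57 with siRNA-1. IMPACT, whose product restrains the eIF2 kinase GCN2, had 4.8, 5.0 and 4.5 CPM with siRNA-2, 8.1, 10.5 and 8.0 CPM with siRNA-1, and 9.5, 9.7 and 7.9 CPM with control. It was lower with siRNA-2 (−0.90, SE 0.147, adjusted p = 6.04e-06 from edgeR) and had a log2 fold change of −0.02 (adjusted p = 0.907) with siRNA-1.

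Some of these counts depend on how reads were assigned. EIF5A and EIF5AL1, like EIF2S3 and EIF2S3B, are close copies between which reads may be split. EIF3L shared 41.13% of its exon bases with AL022311.1 and EIF6 17.41% with AL121753.1 on the same strand, and EIF4EBP3 shared 73.37% with a readthrough gene. On the opposite strand, EIF4E2 shared 16.64% with AC073254.1 and EIF2B1 14.78% with DDX55. The libraries were strand-specific, but whether the counting used the strand was not given in the sources used here.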

How the data were processed

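Strand-specific RNA sequencing libraries of 9 transfected WiDr cultures (3 per group) were analysed. The authors deposited 1 table per LIMp27 siRNA with raw read counts per gene, not normalized, and FPKM values. The deposited FPKM of the 50 genes were within 1% of counts per kilobase of mean GENCODE 29 transcript length scaled to the reads counted in a library, and were used only for levels between genes. The submitters' processing notes name CASAVA (no version stated) and GRCh38; the counting program was not given in the sources used here. Of the normalized values 12 columns, and the authors' own fold changes and p-values, were not used.

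Each comparison was fitted on its own 6 libraries over all genes with edgeR 4.0.16 in R 4.3.3 (TMM, filterByExpr with a minimum count of 10, quasi-likelihood test, Benjamini-Hochberg adjusted p under 0.05). The standard error was the size of the log2 fold change over the square root of F. CPM used TMM factors over all 9 libraries. The fits were tested on simulated data. Fold changes between siRNAs came from a direct fit, since both siRNAs share the control libraries, and p-values measure only the spread between the 3 libraries of a group.

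The genes and lists were chosen with earlier results of these data known. Per-library values were given for called genes with a log2 fold change of at least 0.5 against control, up to 6 genes with the smallest adjusted p between siRNAs, the most abundant gene of each family, and up to 6 called genes of the partner list, which gave 26 initiation factor genes. EIF1B, which was called higher with both siRNAs, was given per library outside this rule. Alternatives were RLE size factors, DESeq2 1.42.0, no filter, a replicate block, 1 fit over 9 libraries and leaving out each library; library totals without TMM were added after seeing the data. Promoter sequences came from RefSeq (GRCh38.p14), and exon overlaps from GENCODE 29.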

Additional observations from a re-analysis of the deposited data

Results flagged for a closer look

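The effects of the 2 LIMp27 siRNAs differed for 26 initiation factor genes in the direct comparison of LIMp27 siRNA-2 with LIMp27 siRNA-1 by edgeR. Of the 48 genes tested, 35.42% were higher and 18.75% lower with LIMp27 siRNA-2, beside 23.1% higher and 22.4% lower of all 14415 genes tested. The values below are log2 differences, LIMp27 siRNA-2 minus LIMp27 siRNA-1. The 9 genes lower with LIMp27 siRNA-2 were EIF4E2 (−1.50), EIF4E (−1.22), EIF4E3 (−1.21), EIF1AX (−1.05), EIF2B1 (−0.59), EIF3E (−0.57), EIF4A3 (−0.52), EIF1B (−0.22) and EIF2S1 (−0.15). EIF1B was higher than control with both siRNAs, and less so with LIMp27 siRNA-2. The 17 genes higher with LIMp27 siRNA-2 were EIF5A2 (0.67), EIF4G3 (0.39), EIF4H (0.31), EIF5 (0.30), EIF3A (0.29), EIF4G2 (0.26), EIF3C (0.26), EIF2D (0.25), EIF2A (0.24), EIF3H (0.21), EIF3J (0.19), EIF3F (0.18), EIF6 (0.16), EIF3G (0.15), EIF2S3 (0.14), EIF4A2 (0.13) and EIF4B (0.12). Of the 26, 8 lost the call in at least 1 of 12 alternative fits, namely EIF4B (in 9), EIF4A2 (7), EIF2S3 (6), EIF2S1 (5), EIF3G (5), EIF3C (4), EIF1B (1) and EIF6 (1). Calls were also gained. EIF5A (−0.11, adjusted p = 0.063 from edgeR) was called with RLE size factors, library totals, DESeq2 and no filter. It was also called with the replicate block, in the fit over 9 libraries and without siRNA-2 replicate 1. EIF1, EIF2S2, EIF3K, EIF4EBP1 and EIF5B were each called in at least 1 fit. What made the siRNAs differ was not tested.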

How the results depend on the processing

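No called initiation factor gene changed direction under any alternative. On library totals alone, 7 genes were higher with siRNA-1 and 4 with siRNA-2, in place of 2 each. The genes gained were EIF3I, EIF5A, EIF3K, EIF2B3 and EIF4E2 with siRNA-1, and EIF2B3 and EIF2D with siRNA-2. The TMM factors were 1.03 to 1.04 for the siRNA-1 libraries and 0.965 to 0.973 for the controls beside them. Leaving out 1 library at a time gave 1 to 2 higher and 26 to 31 lower genes with siRNA-2, 2 to 3 higher and 30 to 32 lower with siRNA-1, and 13 to 18 higher and 7 to 10 lower between the siRNAs.

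Only uncalled genes turned direction. Among the 26 genes that the rule chose for per-library values, with siRNA-1 these were EIF4A3, EIF4E2 and EIF4E3. EIF4A3 was at −0.01 without the filter on low counts and −0.03 without siRNA-1 replicate 1 or control replicate 3. Without control replicate 2, EIF4E2 was at −0.01 and EIF4E3 at −0.07. Over all fits that left out a library, EIF4A3 ran from −0.03 to 0.03, EIF4E2 from −0.01 to 0.05 and EIF4E3 from −0.07 to 0.22. With siRNA-2 these were EIF1 (0.04), EIF3I (0.08), EIF5A (0.02) and EIF6 (0.06) on library totals, and EIF3I without siRNA-2 replicate 3 (0.01) or control replicate 3 (0.03), with a range of −0.04 to 0.03 over such fits. Of the other 22 tested genes, EIF2B2, EIF2B4 and EIF5B turned with siRNA-1 in at least 1 fit, EIF2B2, EIF3A, EIF3K, EIF4G3, EIF5AL1 and EIF5B with siRNA-2, and EIF1AD, EIF3CL, EIF3L, EIF4G1 and EIF5AL1 between the siRNAs, none of them called and all within 0.14 of 0 by edgeR. The cause was not tested.

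Same-numbered libraries correlated between −0.17 and 0.19 in their deviations, and differently numbered ones between −0.27 and 0.22. No pairing by replicate number was thus visible, although 3 libraries per group cannot exclude one. With the replicate block, 30 genes were lower and 2 higher with siRNA-2, 32 lower and 2 higher with siRNA-1, and 10 lower and 18 higher between the siRNAs. Scarce genes such as EIF4E3 (19 to 61 reads) and EIF5AL1 limit what depth can show.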
